A study of Homo sapiens with 12 samples.

Results

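The SMAD factors and SKI repressors are the 8 SMAD genes of the human genome, SMAD1 to SMAD7 and SMAD9, together with SKI and SKIL, which makes 10 of the 17958 genes measured. A gene entered when a transcript cluster of the array, the group of probes that reports 1 transcript locus, carried its symbol as the only symbol. SMAD2 alone had a choice of clusters, and the brighter of them, by its mean over the 12 arrays, stands for it. The cells were BT549, an established line from a triple-negative breast cancer, and the gene that was perturbed encodes ERβ2, a splice form of estrogen receptor beta. There were 4 groups of 3 biological replicates each: cells 48 h after transfection with ERβ2 siRNA, cells 48 h after a control siRNA, cells 24 h after a pcDNA3 plasmid that expresses flag-tagged ERβ2, and cells 24 h after the empty pcDNA3 vector (EV). All groups were the same line in antibiotic-free medium, and every group was transfected, so no untransfected cells enter any comparison. The methods list penicillin-streptomycin in the medium used to maintain the line. The siRNA and plasmid arms differed in time, in nucleic acid, in reagent and in cell density at transfection. No source used here names the ERβ2 siRNA reagent behind the arrays.

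SMAD proteins carry signals of the TGF-β family to the nucleus. Receptors activated by TGF-β or activin phosphorylate SMAD2 and SMAD3, receptors activated by bone morphogenetic proteins (BMPs) phosphorylate SMAD1, SMAD5 and SMAD9, and both branches share SMAD4 as the partner that joins them on DNA. SMAD6 and SMAD7 are inhibitory SMADs that block receptors and are themselves switched on by the pathway, and SKI and SKIL (SnoN) hold SMAD complexes silent by bringing in corepressors. In breast cancer the TGF-β branch is known both for arresting growth of epithelial cells and for mesenchymal conversion and matrix production in advanced tumours.

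Array medians lay between 5.04 and 5.14 on the log2 scale, and each array correlated with the others of its group at 0.9969 or more on average. Mesenchymal markers of BT549 (VIM, FN1, CDH2, ZEB1, CD44 and AXL) had group means between 8.86 and 12.38 on a scale that ran from 2.02 to 13.46 over all clusters. Of the 10 luminal epithelial markers, CDH1, EPCAM, ESR1 and PGR had group means between 3.43 and 4.07, FOXA1 between 4.60 and 4.76 and KRT19 between 4.75 and 5.92. The luminal markers KRT8 (6.93 to 8.30), ERBB2 (7.90 to 8.10), GATA3 (8.29 to 8.64) and KRT18 (9.33 to 11.10) read higher. Of the 6 markers of blood, vessel and fat cells, PTPRC, CD3E, PECAM1, CDH5 and ADIPOQ had group means between 3.04 and 4.32, and CD14 between 5.71 and 6.85. ESR2, which encodes all forms of the receptor, read 4.12, 3.99 and 3.80 with ERβ2 siRNA and 4.03, 3.88 and 4.05 with control siRNA, so this probe set gave no check of the knockdown. With ERβ2 plasmid it read 4.35, 4.72 and 4.37, above 4.08, 3.93 and 4.01 with EV, but the change of 0.47 (SE 0.10) had an adjusted p of 0.449. The p-values below come from limma, are adjusted by Benjamini-Hochberg over all 17958 genes, and measure the spread among 3 arrays a group. A gene passed at an adjusted p of at most 0.1. Because each array read a whole culture, fewer cells with a transcript and less transcript per cell cannot be told apart.

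After ERβ2 knockdown, 5 of the 10 members rose and none fell: SMAD6 1.47-fold, SMAD5 1.32-fold, SMAD2 1.16-fold, SKIL 1.16-fold and SMAD3 1.14-fold. Among all genes 18.3% rose and 17.5% fell by the same criterion. On the cluster used for each gene none of the 10 also reached 1.5-fold, against 3.25% of genes called higher and 1.26% called lower with that added. The arrays of the siRNA groups did not overlap for the same 5 members, as for 42.4% of all genes. The members' median change was 0.14 on the log2 scale, beside -0.03 over all genes, and their median change regardless of direction was 0.17, beside 0.13. After ERβ2 overexpression none of the 10 passed in either direction, where 0.0111% of genes (2 genes) rose and 0% fell. At an unadjusted p under 0.05 the plasmid comparison held 0 members and 1260 genes, and limma with a trend and robust prior passed 44 genes, none of them a member.

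**Figure D1:**
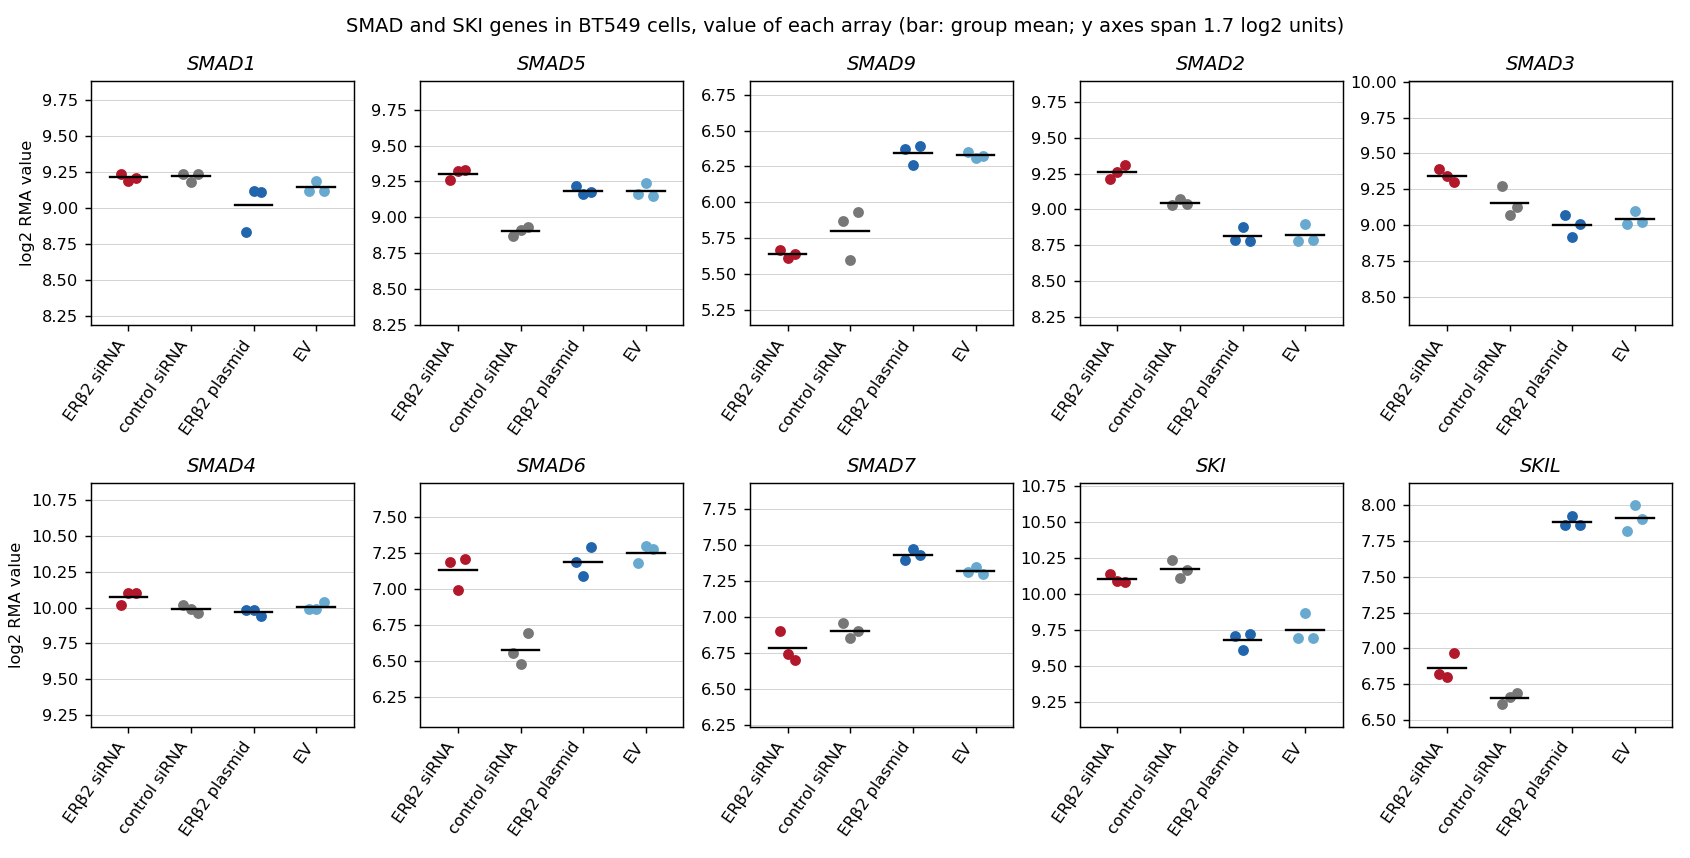
Log2 value of each array (points) and group mean (bars) for the 10 members, with ERβ2 siRNA, control siRNA, ERβ2 plasmid and EV along each horizontal axis. SMAD5 and SMAD6 read lower with control siRNA than in each other group, and SKIL, SMAD7 and SMAD9 read higher in both plasmid groups than in both siRNA groups.

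The BMP branch split among its members. SMAD5 (cluster 8108238), a receptor-activated SMAD, read 9.26, 9.32 and 9.33 with ERβ2 siRNA, against 8.87, 8.91 and 8.93 with control siRNA. It read 9.22, 9.16 and 9.18 with ERβ2 plasmid, against 9.16, 9.24 and 9.15 with EV. The control siRNA arrays were the lowest of the 12, and the plasmid groups overlapped. SMAD5 rose by 0.40 with ERβ2 siRNA (SE 0.054, limma adjusted p = 0.000908), a change larger in size than that of 89.4% of genes, and it kept its call in all 17 refits under other settings. With ERβ2 plasmid the change was 0.003 (95% confidence interval -0.12 to 0.13).

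SMAD1 (cluster 8097657), its close relative, read 9.24, 9.19 and 9.21 with ERβ2 siRNA, against 9.24, 9.18 and 9.24 with control siRNA, a change of -0.007 (SE 0.053, limma adjusted p = 0.944). With ERβ2 plasmid it read 8.83, 9.12 and 9.11, against 9.12, 9.19 and 9.12 with EV. The first plasmid array was the lowest of all 12, and the change of -0.12 had a confidence interval of -0.32 to 0.07. SMAD9 (cluster 7971015) read 5.67, 5.61 and 5.64 with ERβ2 siRNA, against 5.87, 5.60 and 5.93 with control siRNA. The second control array lay with the knockdown arrays and apart from the other controls. The change of -0.16 (SE 0.087) did not pass (limma adjusted p = 0.208), but without that control array it was -0.26 with an adjusted p of 0.0256. SMAD9 read 6.37, 6.26 and 6.39 with ERβ2 plasmid, against 6.35, 6.31 and 6.32 with EV.

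In the TGF-β and activin branch both receptor-activated SMADs rose with ERβ2 siRNA. SMAD2 (cluster 8023195) read 9.21, 9.26 and 9.31 with ERβ2 siRNA, against 9.03, 9.07 and 9.04 with control siRNA. The change was 0.21 (SE 0.055, limma adjusted p = 0.0202) and passed in all 17 refits. SMAD2 read 8.79, 8.88 and 8.78 with ERβ2 plasmid, against 8.78, 8.90 and 8.79 with EV, so that both plasmid groups lay under both siRNA groups and overlapped each other.

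SMAD2 was also reported by a dimmer cluster (8023191), on which the change was larger. That cluster read 8.49, 8.58 and 8.52 with ERβ2 siRNA, against 7.79, 7.87 and 8.03 with control siRNA, a 1.55-fold rise (log2 change 0.63, SE 0.072, limma adjusted p = 0.00044 over all clusters). With ERβ2 plasmid it read 7.34, 7.24 and 7.34, against 7.32, 7.47 and 7.22 with EV (change -0.03, 95% confidence interval -0.20 to 0.14). Both clusters placed the 4 groups in the same order, knockdown highest and the plasmid groups lowest. With the median of both clusters in place of the brighter, SMAD2 rose by 0.42 (adjusted p = 0.000975), and its difference between knockdown and overexpression effects was 0.44 (adjusted p = 0.00195). Which transcripts of SMAD2 each cluster reads was not examined.

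**Figure D2:**
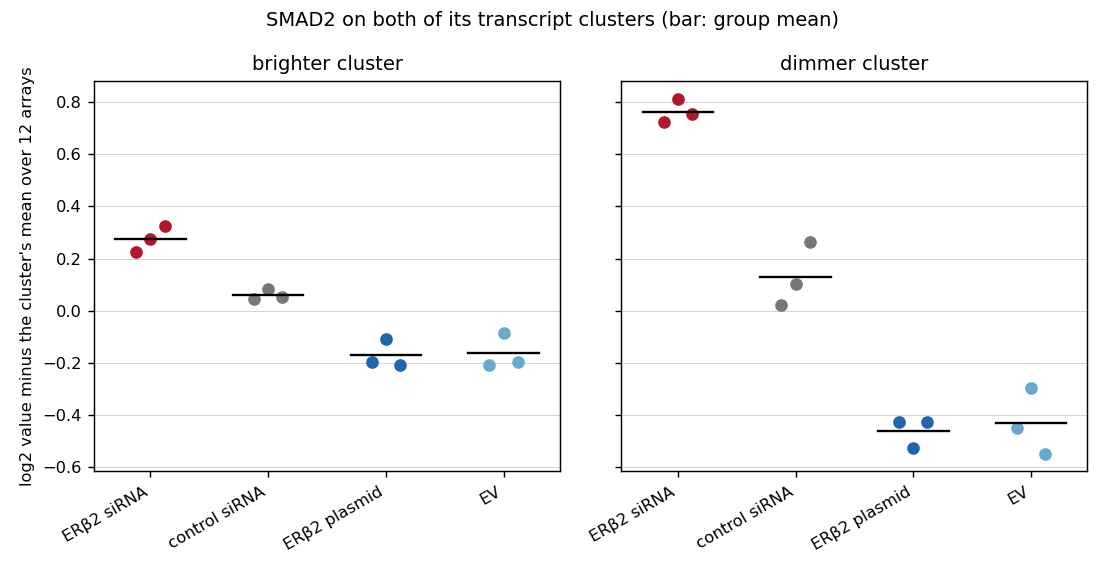
SMAD2 on its brighter and its dimmer transcript cluster, as log2 value minus the mean of that cluster over the 12 arrays, with arrays as points and group means as bars. The knockdown arrays are highest on both clusters, and the rise over control siRNA is 0.21 on the brighter and 0.63 on the dimmer.

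SMAD3 (cluster 7984364), which binds the SMAD element of DNA directly, read 9.39, 9.34 and 9.30 with ERβ2 siRNA, against 9.27, 9.07 and 9.13 with control siRNA. The lowest knockdown array lay just above the highest control. The change was 0.19 (SE 0.067, limma adjusted p = 0.0724), and it was lost when any array other than the first control was left out, with adjusted p of 0.113 without the third ERβ2 siRNA array, 0.133 without the second, 0.181 without the first, 0.167 without the third control and 0.201 without the second control. SMAD3 read 9.07, 8.92 and 9.01 with ERβ2 plasmid, against 9.01, 9.10 and 9.02 with EV. SMAD4 (cluster 8021228), the shared partner, varied least of the 10, with all 12 arrays between 9.94 and 10.10. Its change was 0.08 with ERβ2 siRNA (SE 0.055, limma adjusted p = 0.294) and -0.04 with ERβ2 plasmid (95% confidence interval -0.16 to 0.08). SMAD4 read 9.98, 9.98 and 9.94 with ERβ2 plasmid, against 9.99, 9.99 and 10.04 with EV, without overlap.

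The inhibitory SMADs did not move together. SMAD6 (cluster 7984353), which mainly restrains BMP receptors, read 7.19, 6.99 and 7.21 with ERβ2 siRNA, against 6.55, 6.48 and 6.69 with control siRNA. This was the largest rise on the cluster used for each member (the dimmer SMAD2 cluster rose by 0.63), at 0.56 (SE 0.082, limma adjusted p = 0.0014), and it passed in all 17 refits. SMAD6 read 7.19, 7.09 and 7.29 with ERβ2 plasmid, against 7.18, 7.30 and 7.28 with EV, so the control siRNA arrays were again the lowest of the 12. SMAD7 (cluster 8023220), which restrains both branches, read 6.90, 6.74 and 6.70 with ERβ2 siRNA, against 6.96, 6.85 and 6.90 with control siRNA. The change was -0.12 (SE 0.069, limma adjusted p = 0.221), and it passed when the first ERβ2 siRNA array was left out (-0.18, adjusted p = 0.0895) or after a second quantile normalization (-0.18, adjusted p = 0.0574). With ERβ2 plasmid SMAD7 read 7.40, 7.47 and 7.43, against 7.31, 7.35 and 7.30 with EV. These arrays did not overlap, which was so for 2 of the 10 members, SMAD7 and SMAD4, and for 12% of all genes. The SMAD7 change of 0.11 (95% confidence interval -0.005 to 0.23) did not pass (limma adjusted p = 0.727).

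SMAD6, SMAD7 and SKIL are known targets of SMAD signals, and the 250 bases before their outermost RefSeq start site (GRCh38.p14) are shown with 2 forms of the SMAD element in capitals, the palindrome GTCTAGAC and the box CAGAC, which reads GTCTG on the other strand. RefSeq windows were found for 9 of the 10 members, and both strands were searched. Only the outermost window of each was searched, although there were 5 for SMAD1, 5 for SMAD3, 3 for SMAD7 and 2 for SMAD2.
SMAD6, chr15:66701986-66702235, plus strand: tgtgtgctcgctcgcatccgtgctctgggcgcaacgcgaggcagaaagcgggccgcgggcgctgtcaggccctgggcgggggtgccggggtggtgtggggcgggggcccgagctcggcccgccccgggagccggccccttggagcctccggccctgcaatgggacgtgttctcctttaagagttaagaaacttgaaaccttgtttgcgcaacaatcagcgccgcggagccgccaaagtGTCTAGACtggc
SMAD7, chr18:48950966-48951215, minus strand: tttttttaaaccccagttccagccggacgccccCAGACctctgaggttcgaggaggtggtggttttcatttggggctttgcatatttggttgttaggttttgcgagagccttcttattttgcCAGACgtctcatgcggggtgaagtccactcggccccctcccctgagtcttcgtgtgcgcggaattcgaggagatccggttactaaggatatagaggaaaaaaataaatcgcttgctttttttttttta
SKIL, chr3:170357465-170357714, plus strand: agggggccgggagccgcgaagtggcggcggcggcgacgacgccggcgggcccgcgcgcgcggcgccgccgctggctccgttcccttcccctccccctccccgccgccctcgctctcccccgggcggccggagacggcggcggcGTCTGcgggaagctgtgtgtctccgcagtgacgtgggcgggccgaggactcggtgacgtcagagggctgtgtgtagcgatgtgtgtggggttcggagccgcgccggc
The palindrome stood 12 bases before the start of SMAD6 and was found in 0.182% of the 35116 promoter windows of the same length. The box CAGAC stood 217 and 128 bases before the start of SMAD7 and 107 before that of SKIL, and 38% of windows held it. Neither form was found in the outermost window of the other 6 members. Windows at further start sites, those of SMAD7 among them, were not searched for either form in a member. These are matches of letters only.

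The corepressors also differed from each other. SKIL (cluster 8083876) read 6.82, 6.80 and 6.97 with ERβ2 siRNA, against 6.61, 6.66 and 6.69 with control siRNA. The knockdown arrays lay above every control, and the change was 0.21 (SE 0.064, limma adjusted p = 0.0416). The call was lost without the third ERβ2 siRNA array (0.16, adjusted p = 0.146) and after a second quantile normalization (0.15, adjusted p = 0.108). SKIL read 7.86, 7.92 and 7.86 with ERβ2 plasmid, against 7.82, 8.0 and 7.90 with EV, a change of -0.03 (95% confidence interval -0.17 to 0.12). SKI (cluster 7897068) read 10.14, 10.09 and 10.08 with ERβ2 siRNA, against 10.24, 10.11 and 10.17 with control siRNA, and the groups overlapped (change -0.07, SE 0.058, limma adjusted p = 0.405). With ERβ2 plasmid it read 9.71, 9.61 and 9.72, against 9.69, 9.87 and 9.69 with EV, also a change of -0.07 (95% confidence interval -0.23 to 0.09).

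**Figure D3:**
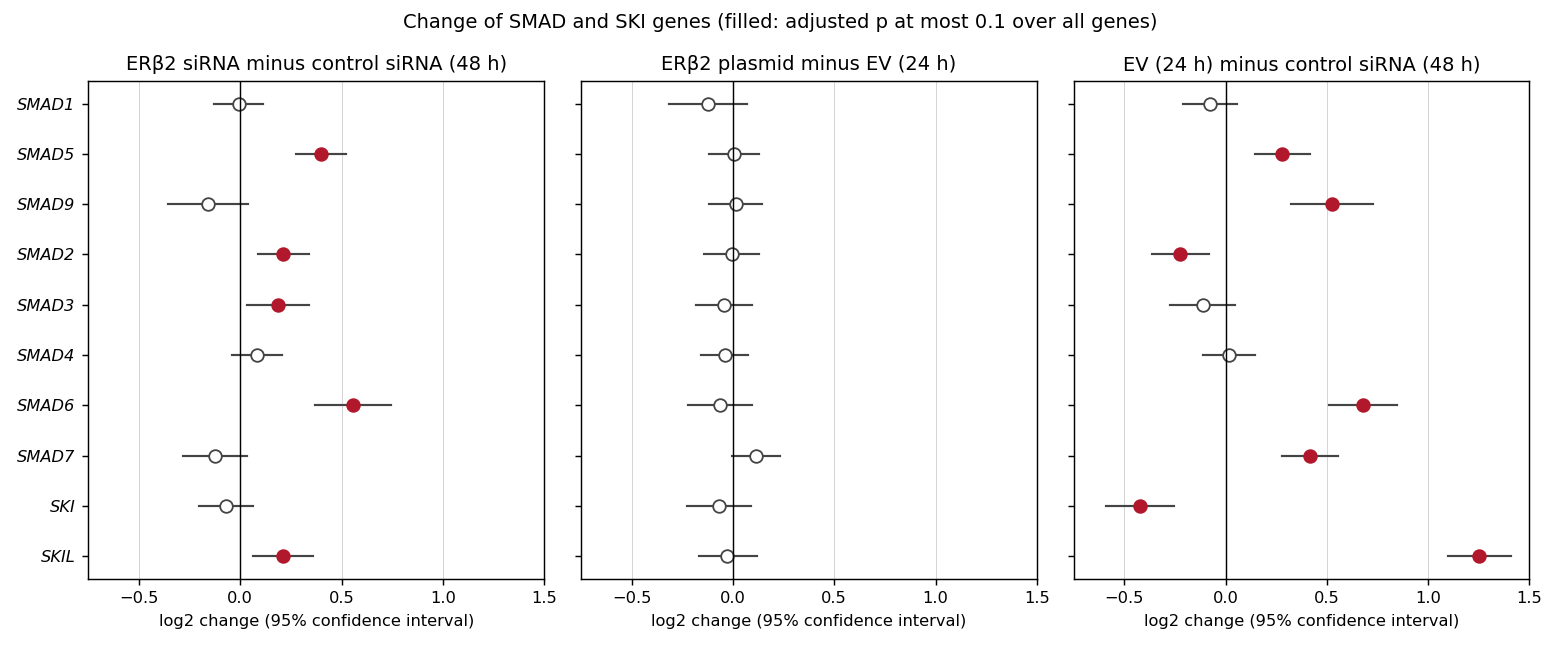
Log2 change of each member (points) with its 95% confidence interval (lines) for ERβ2 siRNA minus control siRNA, ERβ2 plasmid minus EV, and EV minus control siRNA, filled where the adjusted p was at most 0.1. Filled points number 5, 0 and 7 in the 3 panels, and SKIL has the largest change, 1.253, in EV against control siRNA.

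Whether knockdown and overexpression acted differently on a member was tested directly, as the effect of ERβ2 siRNA minus the effect of ERβ2 plasmid in a fit over the 12 arrays. The difference passed for 6 of 10 members, 5 with the higher effect under knockdown (15% of all genes) and 1 with the lower (11.3% of all genes). It was 0.62 for SMAD6 (SE 0.11, limma adjusted p = 0.00163) and 0.40 for SMAD5 (SE 0.068, limma adjusted p = 0.0013), and both passed in all 20 refits. For SMAD7 it was -0.24 (SE 0.083, limma adjusted p = 0.0647), the knockdown change being -0.12 and the plasmid change 0.11, although neither passed alone. The differences of SMAD2 (0.22, limma adjusted p = 0.0584), SMAD3 (0.23, limma adjusted p = 0.0912) and SKIL (0.24, limma adjusted p = 0.078) were smaller than those of SMAD5 and SMAD6. On its dimmer cluster the difference of SMAD2 was 0.66 (SE 0.11, limma adjusted p = 0.000854). On the clusters used, the differences of SMAD2, SMAD3 and SKIL passed in 15, 9 and 11 of 20 refits, and that of SMAD7 in 11. Leaving out the third ERβ2 siRNA array removed all 4 calls, with adjusted p of 0.135 for SMAD2, 0.108 for SMAD3, 0.153 for SMAD7 and 0.179 for SKIL, and so did leaving out the third ERβ2 plasmid array, with 0.133, 0.142, 0.113 and 0.15 in the same order. SMAD1, SMAD4, SMAD9 and SKI did not pass, and for SKI the difference was 0 (95% confidence interval -0.19 to 0.19).

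The control groups of the siRNA and plasmid arms were also set against each other. EV cells against control siRNA cells had 5 members higher and 2 lower, where 19.2% of all genes were higher and 22.4% lower. The arrays of 7 members did not overlap, as for 47.2% of genes, and the median change regardless of direction was 0.35 for the members and 0.16 over all genes. Time, nucleic acid, reagent and cell density differ together between these groups and cannot be told apart. The control siRNA arrays also serve the knockdown comparison and enter both changes of each member.

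SKIL led this comparison: it was 2.38-fold higher in EV cells (log2 change 1.253, SE 0.067, limma adjusted p = 3.58e-06), and 98.7% of genes changed less in size. Its lowest EV array, 7.82, lay above its highest control siRNA array, 6.69. SKI was 1.34-fold lower in EV cells (-0.42, SE 0.073, limma adjusted p = 0.00279), with EV arrays between 9.69 and 9.87 and control arrays between 10.11 and 10.24. The SKI paralogues thus changed in opposite directions, each beyond the spread of its replicates. SMAD6 was 1.60-fold higher in EV cells (0.68, SE 0.074, limma adjusted p = 0.000221), and it and SKIL were the members that also reached 1.5-fold. SMAD9 was higher by 0.53 (SE 0.089, limma adjusted p = 0.00247), SMAD7 by 0.42 (SE 0.060, limma adjusted p = 0.00106) and SMAD5 by 0.28 (SE 0.059, limma adjusted p = 0.00778). SMAD2 was lower by 0.22 on its brighter cluster (SE 0.061, limma adjusted p = 0.0244) and by 0.56 on its dimmer one (SE 0.089, limma adjusted p = 0.00193). SMAD1 (-0.08), SMAD3 (-0.11) and SMAD4 (0.02) did not pass. The 7 calls held in all 17 refits.

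Interferon-stimulated genes moved with this comparison. All 10 of the listed ones were higher in EV cells, by a median of 5.85 on the log2 scale, with OAS2 at 11.41 in EV cells and 5.30 in control siRNA cells (group means). Among all genes 19.2% were higher in EV cells and 22.4% lower. All 10 listed mitosis genes were lower in EV cells, by a median of -0.32. The part of either in the SMAD and SKI changes was not tested. With ERβ2 siRNA 1 interferon-stimulated gene rose, ISG15 (0.50), and 2 fell, IFI6 (-0.36) and OAS2 (-0.22, a call held in 8 of 17 refits), while 9 of 10 mitosis genes fell, among them CENPA (-0.93), CDK1 (-0.42), BUB1 (-0.33) and TOP2A (-0.32). Of 10 luminal epithelial markers 3 rose, the keratins KRT8 (0.78) and KRT18 (0.88) and CDH1 (0.17, limma adjusted p = 0.0997), and 1 fell, GATA3 (-0.29). Of 6 mesenchymal markers 1 rose, FN1 (0.42), and 1 fell, AXL (-0.42). Of 6 markers of immune, endothelial and fat cells 1 rose, CD14 (0.48), and 2 fell, CD3E (-0.17) and CDH5 (-0.22). CDH1 (4.06 with ERβ2 siRNA, 3.89 with control siRNA), CD3E (3.16 and 3.33) and CDH5 (3.69 and 3.90) read near the low end of the scale in both groups. Beside these knockdown counts, 18.3% of all genes rose and 17.5% fell. The part of the interferon-stimulated, mitosis and marker genes in the knockdown changes was not tested.

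The receptors that feed the SMADs changed in both directions with ERβ2 siRNA. Of 15 receptors and co-receptors measured, 7 rose and 4 fell, with a median change of 0.11. For the knockdown counts of this and each list below, the shares over all genes are the 18.3% that rose and 17.5% that fell. TGFBR1, the type I receptor that phosphorylates SMAD2 and SMAD3, averaged 10.10 with ERβ2 siRNA and 9.35 with control siRNA, a 1.69-fold rise (0.76, SE 0.057, limma adjusted p = 5.09e-05). On the BMP side ACVR1 rose 1.52-fold (limma adjusted p = 0.000234) and BMPR2, the type II BMP receptor, 1.34-fold (limma adjusted p = 0.0014). Endoglin (ENG), a co-receptor, rose 1.44-fold (limma adjusted p = 0.000192).

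Genes that turn SMAD proteins over or strip their phosphate split evenly with ERβ2 siRNA, 5 rising and 5 falling of 19, with a median change of 0.003. CTDSP2, a small C-terminal domain phosphatase that acts on SMADs, fell by 0.82 (SE 0.066, limma adjusted p = 6.44e-05), and the deubiquitinase USP11 fell by 0.39 (limma adjusted p = 0.00134). NEDD4L, a ubiquitin ligase for activated SMAD2 and SMAD3, rose by 0.43 (limma adjusted p = 0.00353) and was higher by 1.89 in EV cells than in control siRNA cells. The ligase STUB1 rose by 0.31 (limma adjusted p = 0.013). Of 15 anchors and transport factors 2 rose, DAB2 (0.28) and STRAP (0.30), 1 fell, FKBP1A (-0.32), and 12 did not pass.

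Among 20 DNA-binding partners and coactivators of the SMADs, 2 rose with ERβ2 siRNA, the acetyltransferase EP300 (0.35) and YAP1 (0.32), and 5 fell, among them RUNX3 (-0.47, SE 0.060, limma adjusted p = 0.000745) and FOXO4 (-0.28, limma adjusted p = 0.0445). The call of FOXO4 was lost without the second control array (adjusted p = 0.109), without the first ERβ2 siRNA array (0.108) and without the third (0.137). Of 14 corepressors that work beside SKI and SKIL, 7 fell, 1 rose and 6 did not pass, with a median change of -0.14. DACH1, a relative of SKI in its conserved domain, fell by 0.76 (SE 0.054, limma adjusted p = 3.93e-05), TGIF2 by 0.45 (SE 0.054, limma adjusted p = 0.000524) and SKOR2, a further SKI family corepressor, by 0.40 (SE 0.12, limma adjusted p = 0.032). SKOR2 read low, at 4.32 with ERβ2 siRNA and 4.72 with control siRNA (group means), and 28.2% of genes were dimmer. Its call was lost in the methods' t-test after Benjamini-Hochberg adjustment (adjusted p = 0.156). TGIF1, the paralogue of TGIF2, was the gene that rose (0.55, SE 0.069, limma adjusted p = 0.000653). As with SKI and SKIL in the EV comparison, these paralogues moved apart, and in EV against control siRNA cells the changes were 0.91 for TGIF1 and -0.34 for TGIF2.

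Readout genes of the branches differed in their counts. Of 22 measured targets of TGF-β and activin signals, 14 rose and 2 fell with ERβ2 siRNA, with a median change of 0.37 beside -0.03 over all genes. LTBP2, a binding protein for latent TGF-β, averaged 8.99 with ERβ2 siRNA and 7.80 with control siRNA, a 2.28-fold rise (1.19, SE 0.073, limma adjusted p = 1.99e-05). The fibrillar collagens COL1A1 (0.68) and COL1A2 (0.66) and smooth muscle actin ACTA2 (0.73) rose beyond 1.5-fold too. The targets that fell, named after their values were seen, were TIMP3 (-0.48, limma adjusted p = 0.000524) and IL11 (-0.32, SE 0.125, limma adjusted p = 0.0924). Of 15 targets of BMP signals, 2 rose, ID2 (0.33) and HEY1 (0.29), and 4 fell, among them ID4 (-0.46) and ID3 (-0.36), with a median of -0.03. In EV against control siRNA cells 14 of 22 TGF-β and activin targets were higher and 2 lower. Of 15 BMP targets 8 were higher and 1 lower, with ID4 higher by 1.23. The shares over all genes in that comparison were 19.2% higher and 22.4% lower. In the plasmid comparison no gene of any of these lists passed. No test was made of any list as a whole.

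**Figure D4:**
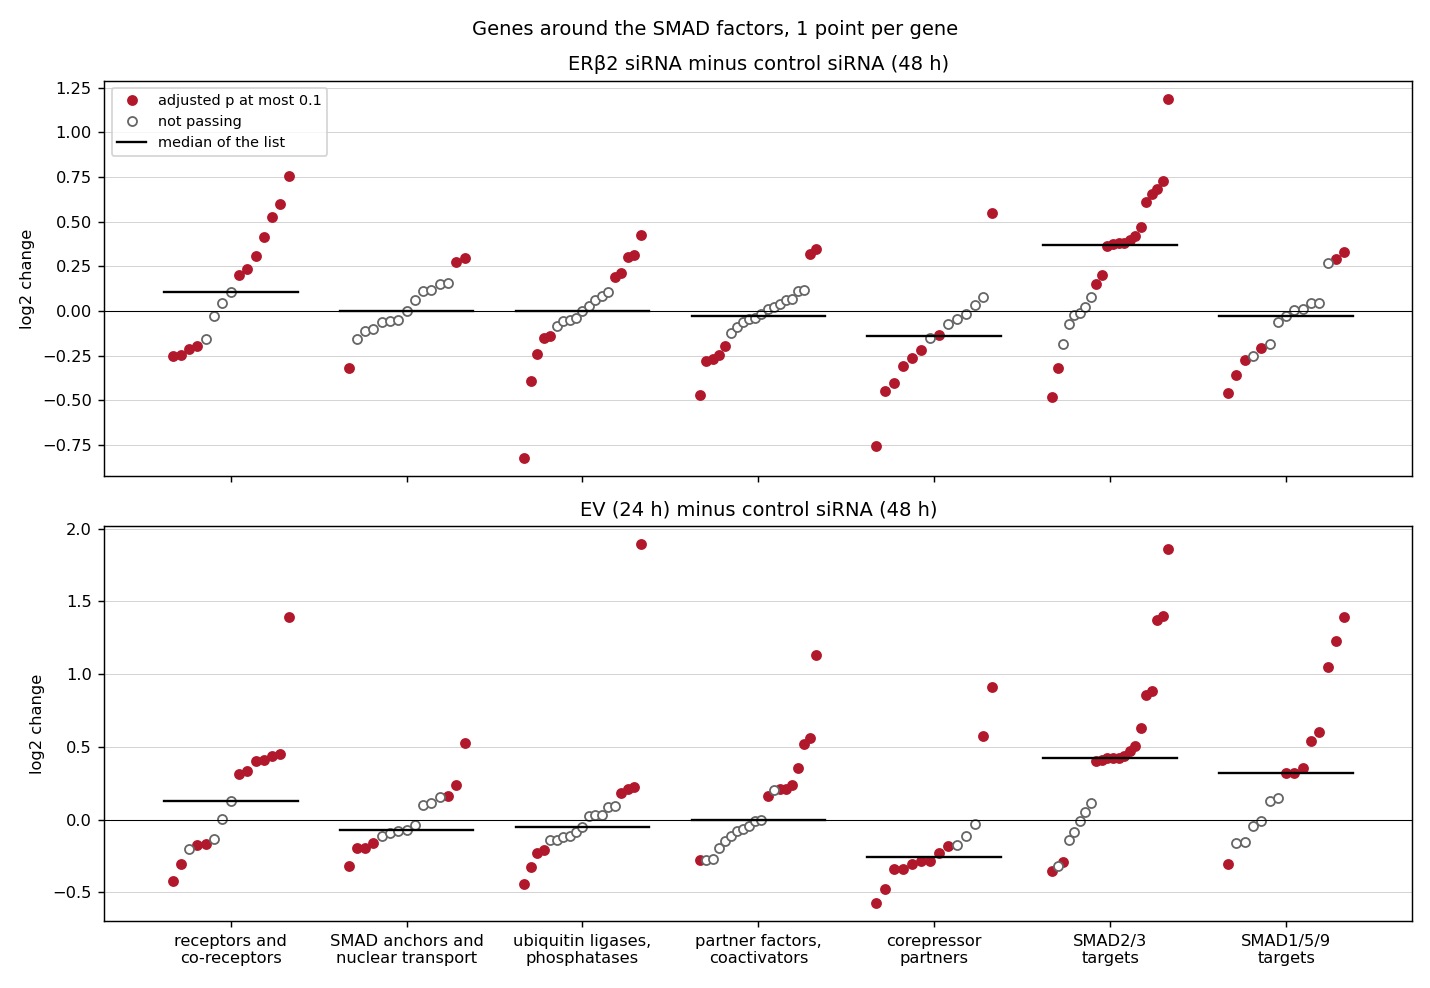
Log2 change of each gene (points, filled where the adjusted p was at most 0.1) in 7 lists of genes around the SMADs, for ERβ2 siRNA minus control siRNA (upper panel) and EV minus control siRNA (lower panel), with list medians as bars. The targets of SMAD2 and SMAD3 have list medians of 0.37 and 0.42, and the corepressor partners -0.14 and -0.26.

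The members with the largest SD over the 12 arrays were SKIL (SD 0.60) and SMAD9 (SD 0.34). The genes whose values, each centred on its own mean, lay nearest to those of SKIL over the 12 arrays were COL4A2, a basement membrane collagen (root mean square difference 0.075 log2 units), the glycosyltransferase B3GNT2 (0.087) and the adhesion protein CEACAM1 (0.095). COL4A2 averaged 7.89 with ERβ2 siRNA, 7.77 with control siRNA, 9.01 with ERβ2 plasmid and 8.97 with EV. Those nearest to SMAD9 were the transcription factor GATA2 (0.078), GORAB (0.079), a Golgi protein, and BTN2A1 (0.083), a butyrophilin. GATA2 averaged 5.87 with ERβ2 siRNA, 6.04 with control siRNA, 6.67 with ERβ2 plasmid and 6.67 with EV. By group means all 6 of these genes, like SKIL and SMAD9, read higher in both plasmid groups than in both siRNA groups. The genes were picked for likeness over these same arrays, so the shared pattern follows from that choice.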

How the data were processed

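Total RNA of BT549 cells was hybridised to 12 Affymetrix Human Gene 1.1 ST arrays. The authors summarised the probes with RMA in Affymetrix Expression Console, per the labels, and deposited log2 values per transcript cluster between 2.02 and 13.46. No source names the log base, and 2, the usual base of RMA, was assumed. RMA corrects background in each array and fits quantiles over all arrays, which narrows global shifts. Of 33297 clusters 19181 carried 1 symbol, and the brightest cluster of each gene left 17958 genes. Groups were compared with limma 3.58.1 in R 4.3.3, with only the compared groups in each fit and all 12 arrays for the difference of effects. Arrays give no read depth, and their number limits the precision. The code was tested on simulated data. Members, lists and alternatives were chosen with earlier results of these data known. Beside the members, up to 4 genes a list were named, those with the largest knockdown change among genes that passed, along with markers, ESR2 and the nearest genes of the most variable members. Promoter windows were RefSeq sequences of GRCh38.p14. Alternatives were other clusters per gene, a filter on dim genes, further normalizations, the methods' t-test, another prior, other thresholds, 1 fit over all groups, a replicate block and leaving out each array.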

Additional observations from a re-analysis of the deposited data

Results flagged for a closer look

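For 6 members the effect of ERβ2 siRNA differed from that of ERβ2 plasmid in a direct test of the difference (limma, adjusted p of at most 0.1). The difference, knockdown effect minus plasmid effect, was 0.62 for SMAD6, 0.397 for SMAD5, 0.237 for SKIL, 0.23 for SMAD3, 0.22 for SMAD2 and -0.237 for SMAD7. The arms differ in time, nucleic acid, reagent and cell density, and what of these the differences reflect cannot be told apart. The differences of SMAD5 and SMAD6 passed without any single array. On the dimmer SMAD2 cluster the difference was 0.663 (adjusted p = 0.000854). That of SMAD2 on its brighter cluster was lost without the third ERβ2 siRNA array (adjusted p = 0.135), the third control siRNA array (0.102), the first (0.12) or the third ERβ2 plasmid array (0.133) or the second EV array (0.107). That of SMAD3 passed without the first control siRNA or the first ERβ2 plasmid array and was lost without each other array, at adjusted p of 0.106 to 0.192. That of SMAD7 passed without the first ERβ2 siRNA, the second control siRNA, the first ERβ2 plasmid or the second EV array and was lost without each other array, at 0.103 to 0.153. That of SKIL was lost without the third ERβ2 siRNA array (0.179), the first (0.133) or second control siRNA array (0.118), the first (0.142) or the third ERβ2 plasmid array (0.15) or the second (0.148) or the third EV array (0.112).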

How the results depend on the processing

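The number of members passing was 5 for knockdown, 0 for overexpression, 6 for the difference of both effects and 7 for EV against control siRNA. At the stricter adjusted p of 0.05, 4 passed for knockdown and 2 for the difference. With 1.5-fold required as well, 0 passed for knockdown, 1 for the difference and 2 for EV. Leaving out 1 array at a time gave 3 to 5 for knockdown, 2 to 5 for the difference, 0 for overexpression and 7 for EV. These counts join both directions. Without the second control siRNA array or the first ERβ2 siRNA array, knockdown had 4 members higher and 1 lower. The same-numbered arrays did not deviate together in every pair (correlations of 0.22, 0.14 and 0.01 in the siRNA groups, and -0.14, -0.09 and 0.10 in the plasmid groups), so the numbers were not taken to pair the samples. A replicate block gave 5 members for knockdown, 0 for overexpression, 5 for the difference and 7 for EV, and the call it changed was the difference of SMAD3 (0.23, adjusted p = 0.101).

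SMAD3 in the knockdown comparison also missed the threshold in the methods' t-test after Benjamini-Hochberg adjustment (adjusted p = 0.136), which passed 5037 genes against 6429. With q-values the t-test passed SMAD4 with ERβ2 siRNA (0.0755) and SMAD1 in EV against control siRNA (0.0596). The difference of SKIL was lost after cyclic loess (adjusted p = 0.126) and a second quantile normalization (0.176), and that of SMAD7 after centring each array on its median (0.162). Without the second control siRNA array the difference of SMAD9 passed (-0.27, adjusted p = 0.0323). No call turned its direction. Without dim genes the median of all genes was 0.02 for knockdown, and the same 5 members rose. OAS2 kept its knockdown call in 8 of 17 refits, FOXO4 in 13 of 17 and SKOR2 in 15 of 16. For overexpression the number of genes passing was 0 to 44 over the other fits that kept all arrays. With 3 arrays a group the median SE of a member's change was 0.061 for knockdown and 0.06 for overexpression, which limits the size of change that could be detected.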
